A study of Mus musculus with 6 samples.

Results

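The heterogeneous nuclear ribonucleoproteins (hnRNPs) and the serine/arginine-rich (SR) splicing factors were examined in regulatory T cells (Treg) without HDAC9, a class IIa histone deacetylase. Members were all genes whose platform symbol starts with Hnrnp or Hnrp, or is Srsf or Sfrs with a number, together with Tra2a and Tra2b. Probe sets with several symbols were omitted. The rule gave 29 genes with 81 probe sets, out of 12393 genes with 1 symbol and 22626 probe sets tested on the array. Of these, 18 genes with 50 probe sets were hnRNP genes, and 11 genes with 31 probe sets were SR or Tra2 genes. All 81 member probe sets were tested, since no filter on brightness was used.

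RNA came from CD4+CD25+ Treg enriched on magnetic beads, from 3 samples of HDAC9-/- mice and 3 samples of wild type C57BL/6 mice. C57BL/6 is the strain given for both genotypes, and the labels name no treatment. Each sample filled 1 Affymetrix array, whose deposited values are log2 expression after RMA, a method that corrects background, normalizes arrays and summarises the probes of a probe set. The design text calls the samples independent, while the labels are silent on the number of mice per sample, age, sex, tissue of origin and the deleted exons of Hdac9. P-values therefore measure the spread between these samples, and the small number of arrays limits the precision.

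Pre-mRNA is cut and rejoined by the spliceosome, and RNA-binding proteins decide which of its competing splice sites are used. SR proteins bind exonic sequences through RNA recognition motifs and commonly recruit the spliceosome through their arginine- and serine-rich domains, whereas many hnRNPs coat introns and exons and often silence nearby sites. In T cells the best known example is Ptprc, which encodes the phosphatase CD45, whose variable exons are skipped after activation through hnRNP L and hnRNP LL.

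No hnRNP or SR probe set passed the test of the genotype difference after adjustment, and the measured differences were small. Measured by its brightest probe set, every gene lay within 0.25 log2 units of wild type, with folds of HDAC9-/- over wild type from 0.864 for Hnrnpul1 to 1.11 for Srsf6. Among all 81 probe sets, 76 lay within that 0.25, which is 1.19-fold, as did 20222 of the 22626 probe sets of the array. The strongest departures from wild type were single probe sets of Hnrnpr and Hnrnpu, both lower in HDAC9-/- Treg, while the brightest probe set of each gene had a difference of -0.036.

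The limma fit across all probe sets, with Benjamini-Hochberg adjustment, called 0 of 81 member probe sets at an adjusted p below 0.05, where the whole array had 3 calls, or 0.0133%. The smallest adjusted p of a member was 0.339. At an unadjusted p below 0.05 there were 10 of 81 member probe sets (12.3%). The share was 8.78% for the array and 11.2% for all probe sets brighter than its median. Of these 10, 9 were lower in HDAC9-/- Treg (11.1% of the members, against 3.23% of the array) and 1 was higher, a direction held by 5.55% of the array. They came from 10 genes, 6 of the hnRNP class, where all of these probe sets were lower, and 4 of the SR class. The groups did not overlap for 15 of 81 member probe sets (18.5%). The share was 17.0% for the array and 23.5% for all probe sets brighter than its median. In 12 of the 15 members the HDAC9-/- samples were lower (14.8%, against 6.04% of the array), and in 3 they were higher, where the array had 11.0%.

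The signs leaned to lower values in HDAC9-/- Treg. The difference, HDAC9-/- minus wild type, was positive for 23 and negative for 58 of the 81 member probe sets, so 28.4% were positive, against 52.2% of the array and 58.0% of all probe sets brighter than its median. The median difference was -0.048 for the members and 0.0078 for all probe sets. The hnRNP class had 34 negative values of 50 and a median of -0.040, and the SR class had 24 of 31 and a median of -0.052. Probe sets of 1 gene are not independent of each other, and taking only the brightest of each gene gave 19 negative values of 29 and a median of -0.023. The lean was smaller without wild type replicate 3, where 47 of 81 differences were negative and the median was -0.017.

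**Figure D1:**
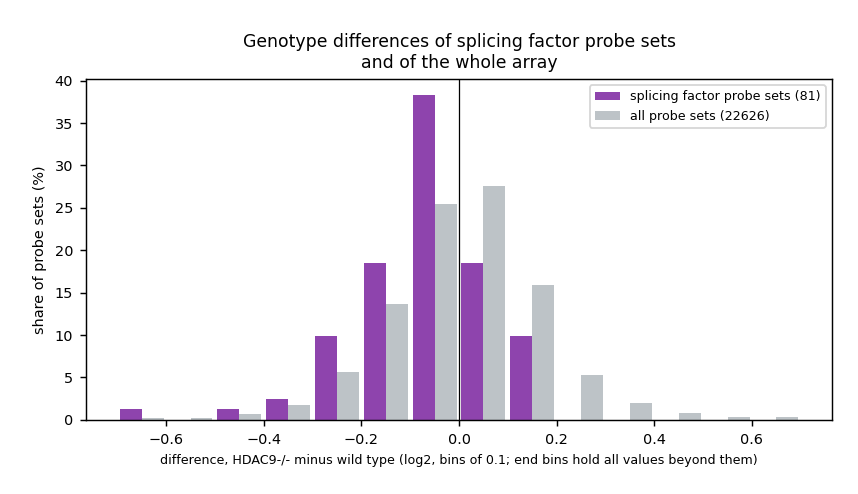
Share of probe sets in percent (vertical axis) by the size of the log2 difference, HDAC9-/- minus wild type, in bins of 0.1 (horizontal axis), for the 81 splicing factor probe sets and for all 22626 probe sets. The splicing factor shares lie mostly just below 0, with a median of -0.048, and those of the array are spread around 0.0078.

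Individual arrays contributed unequally to these signs. Wild type replicate 3 had the highest value of the 6 arrays in 42 of 81 member probe sets, and HDAC9-/- replicate 2 had the lowest in 28. As a mean over members of the value minus the probe set's own mean, HDAC9-/- replicates 1 to 3 stood at -0.032, -0.079 and 0.0075, and wild type replicates 1 to 3 at 0.012, 0.015 and 0.077. All HDAC9-/- replicates lay below all wild type replicates on this mean, the nearest being HDAC9-/- replicate 3 and wild type replicate 1. Without HDAC9-/- replicate 2, the number of member probe sets lower at an unadjusted p below 0.05 was 3, and without wild type replicate 2 it was 5. It was 6 without replicate 1 of either genotype and 8 without HDAC9-/- replicate 3. Without wild type replicate 3 it rose to 11, from 9 with all arrays.

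Wild type replicate 3 also stood apart over the whole array, with a median of 5.69 against 5.77 to 5.81 on the other arrays. The probe set of Hdac9 was dim, at 3.74, 3.62 and 3.66 in HDAC9-/- samples and 3.50, 3.74 and 4.10 in wild type samples, and since the deleted exons are unknown it does not check the labels. Foxp3, which defines Treg, read 10.37 ± 0.055 in HDAC9-/- and 10.34 ± 0.046 in wild type samples (SD, n = 3). Of 9 Treg and T cell markers, 4 had a positive difference, with overlapping log2 summed levels of 14.37 to 14.42 in both genotypes. Of their 11 probe sets, 2 were lower at an unadjusted p below 0.05 (18.2%, against 3.23% of the array) and 0 higher. In 3 of the 11 the groups did not overlap, all lower in HDAC9-/- samples (27.3%, against 6.04% of the array). The gap of the Gapdh control probe sets at the 3-prime over the 5-prime end, which reflects RNA integrity and labelling, was 0.28, 0.17 and 0.15 in HDAC9-/- samples and 0.11, 0.026 and 0.050 in wild type samples. The same gap for actin overlapped, at 0.60, 0.42 and 0.47 in HDAC9-/- samples and 0.41, 0.33 and 0.46 in wild type samples. All 13 genes of a myeloid marker list had a positive difference, with a log2 summed level of 13.51 to 13.76 in HDAC9-/- and 12.55 to 13.26 in wild type samples, and 2 of the 13 lay below the array median. Of their 16 probe sets, 5 were higher at an unadjusted p below 0.05 (31.25%, against 5.55% of the array) and 0 lower. The groups did not overlap in 5, all higher (31.25%, against 11.0% of the array). Of 21 genes of the S and G2/M phases, 20 had a positive difference, and their log2 summed level was 13.40 to 13.54 in HDAC9-/- and 13.28 to 13.37 in wild type samples. Of their 38 probe sets, 15 were higher at an unadjusted p below 0.05 (39.5%, against 5.55% of the array) and 0 lower. The groups did not overlap in 14, all higher (36.8%, against 11.0% of the array). Of 8 B and plasma cell markers, 5 had a positive difference, while their log2 summed level, which follows the brightest genes, was 11.92 to 12.10 in HDAC9-/- and 12.24 to 12.35 in wild type samples. Of their 12 probe sets, 2 were lower at an unadjusted p below 0.05 (16.7%, against 3.23% of the array) and 0 higher. The groups did not overlap in 2, both lower (16.7%, against 6.04% of the array). Of 9 markers of CD8 T and natural killer cells, 7 had a positive difference, with overlapping sums of 11.90 to 12.17 in HDAC9-/- and 11.70 to 12.09 in wild type samples. Of their 12 probe sets, 1 was higher at an unadjusted p below 0.05 (8.33%, against 5.55% of the array) and 0 lower. The groups did not overlap in 1, which was higher (8.33%, against 11.0% of the array). The part of these in the splicing factor values was not tested, and in bulk samples fewer cells of a type cannot be told apart from less RNA per cell.

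**Figure D2:**
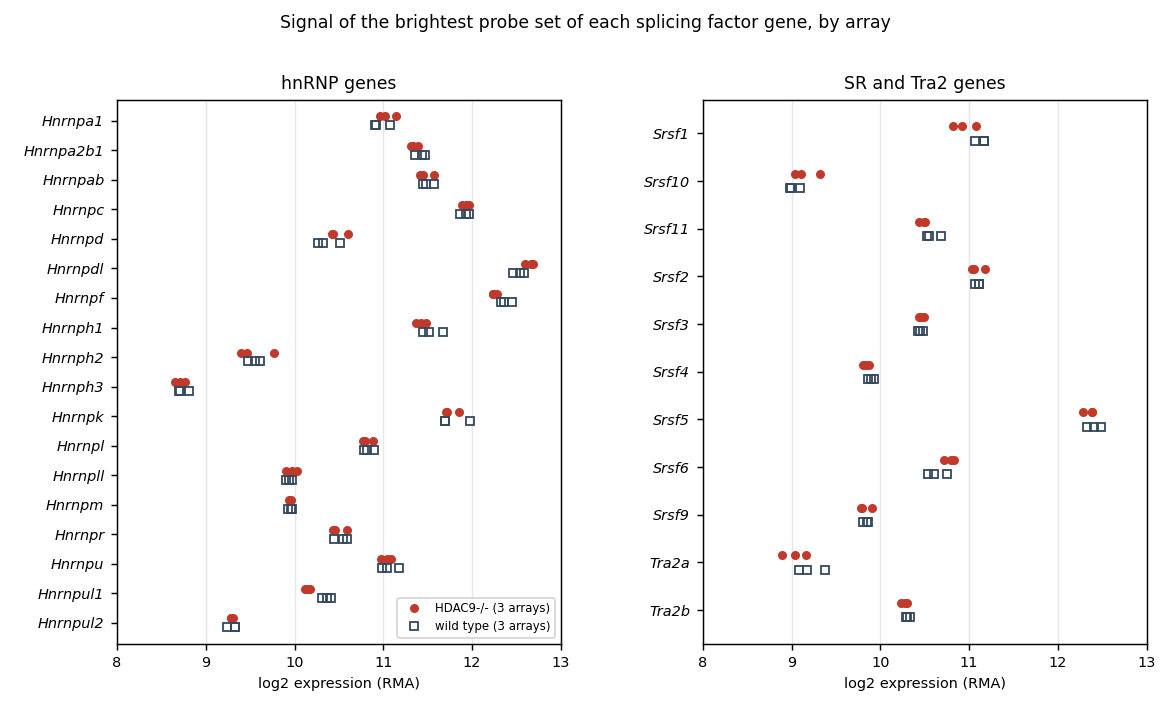
Log2 expression (horizontal axis) of the brightest probe set of each of the 29 genes on each array, with HDAC9-/- and wild type samples marked by colour and 18 hnRNP genes beside 11 SR and Tra2 genes. Within a row the points of both genotypes lie close together, and the folds of the group means run from 0.864 to 1.11.

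The members were bright on all arrays. The mean of 78 of 81 probe sets lay above the array median of 5.76, and the median member stood at the 92.1 percentile of brightness. The 3 dim ones were 2 probe sets of Hnrnpab and 1 of Hnrnph1. Signals of different probe sets depend on their probes, so they do not rank the abundance of the factors. The 95% interval of a difference had a median half-width of 0.19, with a range of 0.14 to 0.51. For 72 of 81 probe sets the interval lay within 0.5 log2 units of 0 on both sides, which is 1.41-fold, and for 81 of 81 it lay within 1.

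The regulators of CD45 splicing are the members with the most direct role in T cells, and neither passed the test. Hnrnpl (1424101_at) read 10.89, 10.78 and 10.80 in HDAC9-/- samples and 10.82, 10.79 and 10.89 in wild type samples. Its groups overlapped fully, and the difference of -0.013 had a 95% interval of -0.18 to 0.15. Hnrnpll, which in mice is needed for the memory form of CD45 in T cells, read 10.02, 9.91 and 9.98 in HDAC9-/- samples and 9.97, 9.94 and 9.91 in wild type samples with its brighter probe set (1425255_s_at). The difference was 0.029, with an interval of -0.13 to 0.19. Its other probe set (1427144_at) had 8.62, 8.57 and 8.67 in HDAC9-/- and 8.53, 8.52 and 8.60 in wild type samples, which also overlapped, and a difference of 0.067 (-0.091 to 0.23). Hnrnpll was 1 of 2 genes with several probe sets that were all higher in HDAC9-/- Treg, the other being Hnrnpc, and none of these passed.

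The general packaging hnRNPs had bright probe sets. Hnrnpc binds uridine-rich stretches of nascent RNA. Its probe set 1460240_a_at read 11.93, 11.88 and 11.96 in HDAC9-/- samples and 11.93, 11.86 and 11.96 in wild type samples, so the genotypes covered nearly the same span, with a difference of 0.0059 (95% interval -0.15 to 0.16). Hnrnpk, a KH domain protein that prefers cytosine-rich RNA, read 11.71, 11.72 and 11.85 in HDAC9-/- samples and 11.70, 11.69 and 11.98 in wild type samples with 1460547_a_at. Wild type replicate 3 was the highest of the 6, the groups overlapped, and the difference was -0.029. The other 3 probe sets of Hnrnpk had differences of -0.074 to 0.043. Hnrnpm, with 1 probe set, had a difference of 0.0011.

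Hnrnpa1 and Hnrnpa2b1 encode the abundant A/B type proteins, which often act as splicing silencers. The 3 probe sets of Hnrnpa1 had differences of 0.070, -0.042 and -0.12. The brightest probe set of Hnrnpa2b1 (1420365_a_at) had a difference of -0.078. The dimmer 1433829_a_at read 10.12, 10.21 and 10.27 in HDAC9-/- samples and 10.49, 10.37 and 10.75 in wild type samples. All HDAC9-/- samples were below all wild type samples there, and the difference of -0.34 had a standard error (SE) of 0.11 (limma, adjusted p = 0.508). The remaining probe sets of the gene differed by -0.038 and -0.13. The 7 probe sets of the related Hnrnpab ranged from -0.25 to 0.064, the lowest being dim, and all had overlapping groups.

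Hnrnpd (AUF1), which binds AU-rich elements and directs mRNA decay, had a difference of 0.12 with its single probe set. Its relative Hnrnpdl carried the brightest member probe set, 1424251_a_at, at 12.69, 12.60 and 12.66 in HDAC9-/- samples and 12.54, 12.46 and 12.58 in wild type samples. The HDAC9-/- samples were all higher, by 0.12 on average (SE 0.069, limma, adjusted p = 0.635). The next probe sets by brightness, 1449039_a_at and 1420093_s_at, had differences of 0.15 and 0.11, and the 3 others, 1424252_at, 1428225_s_at and 1428224_at, had -0.085, -0.16 and -0.077. The groups also did not overlap in 1420093_s_at, which was higher, and in 1424252_at, which was lower. They overlapped in 1449039_a_at, 1428225_s_at and 1428224_at. Hnrnpdl was thus split, with its 3 brightest probe sets higher and its 3 others lower in HDAC9-/- Treg.

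The F/H family binds runs of guanosines. All 4 probe sets of Hnrnpf and both of Hnrnph1 were lower in HDAC9-/- samples without passing. Hnrnpf 1456664_x_at read 12.28, 12.24 and 12.23 in HDAC9-/- samples and 12.32, 12.36 and 12.45 in wild type samples, and 1437099_x_at read 10.08, 9.94 and 10.07 in HDAC9-/- samples and 10.15, 10.21 and 10.40 in wild type samples. The genotypes did not overlap in either, with differences of -0.13 and -0.22 (limma, adjusted p = 0.614 and 0.557). The other Hnrnpf probe sets, 1423382_a_at and 1450963_at, overlapped at -0.082 and -0.12. Hnrnph1 had differences of -0.12 with its bright and -0.24 with its dim probe set, and Hnrnph3 of -0.028. Hnrnph2 of the same family, with 1 probe set, did not share the lower values, with a difference of 0.00024.

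The largest difference of any member belonged to Hnrnpr, a relative of Syncrip (hnRNP Q) that binds and transports mRNA. Its dimmest probe set, 1452030_a_at, read 6.21, 6.06 and 6.08 in HDAC9-/- samples and 6.56, 6.77 and 6.98 in wild type samples. No HDAC9-/- sample reached a wild type value. The means were 6.12 ± 0.083 in HDAC9-/- and 6.77 ± 0.21 in wild type samples (SD, n = 3), a fold of 0.636 and a difference of -0.65 (SE 0.12, 95% interval -0.93 to -0.38, limma, adjusted p = 0.339). The brightest probe set of the gene, 1427129_a_at, read 10.43, 10.46 and 10.59 in HDAC9-/- samples and 10.45, 10.55 and 10.59 in wild type samples, almost the same span, with a difference of -0.036. The third probe set, 1437526_x_at, differed by -0.23 with overlapping groups.

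Hnrnpu (also SAF-A), a nuclear matrix protein that binds chromatin and RNA, including Xist, gave the same picture. Probe set 1450849_at read 9.56, 9.39 and 9.34 in HDAC9-/- samples and 9.82, 9.97 and 9.91 in wild type samples, with every HDAC9-/- sample below every wild type sample. The means were 9.43 ± 0.12 in HDAC9-/- and 9.90 ± 0.073 in wild type samples (SD, n = 3), a fold of 0.721 and a difference of -0.47 (SE 0.085, 95% interval -0.67 to -0.27, limma, adjusted p = 0.339). The brightest probe set, 1423051_at, averaged 11.03 in HDAC9-/- and 11.07 in wild type samples, a difference of -0.036. The 3 others, 1423050_s_at, 1434391_at and 1434390_at, differed by -0.052, 0.011 and -0.055, so 1 of 5 probe sets of Hnrnpu carried the low value.

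The Hnrnpu-like genes act in transcription and in DNA repair. Hnrnpul1 has a single probe set, 1451984_at, at 10.18, 10.12 and 10.15 in HDAC9-/- samples and 10.31, 10.36 and 10.41 in wild type samples. It was the only gene whose brightest probe set had an unadjusted p below 0.05. The groups did not overlap, and the difference of -0.21 (fold 0.864) had an SE of 0.064 (limma, adjusted p = 0.482). Hnrnpul2 read 8.38, 8.40 and 8.41 in HDAC9-/- samples and 8.62, 8.58 and 8.54 in wild type samples with 1434551_at, again without overlap (difference -0.18, SE 0.062, limma, adjusted p = 0.529). Its brighter probe set, 1415765_at, differed by -0.0078.

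**Figure D3:**
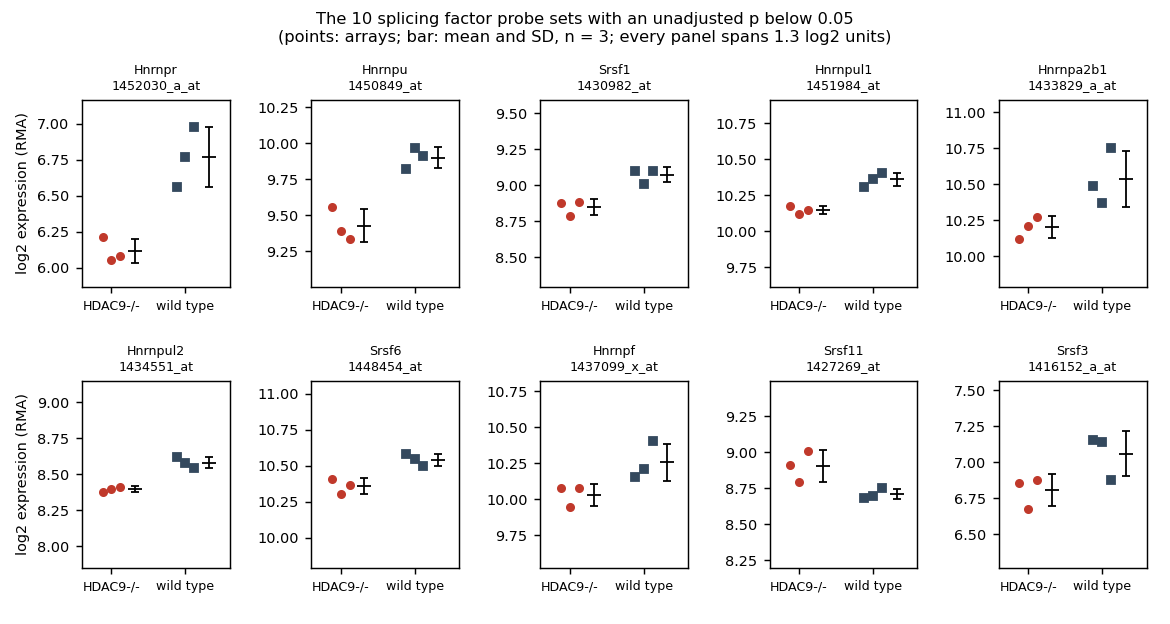
Log2 expression (vertical axis) on each array for the 10 splicing factor probe sets with an unadjusted p below 0.05, HDAC9-/- samples left of wild type samples, with bars for the mean and SD (n = 3). In 9 panels the HDAC9-/- points lie below the wild type points, most widely for Hnrnpr (-0.65) and Hnrnpu (-0.47), and in the panel of Srsf11 they lie above (0.19).

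Among the SR proteins, Srsf1 (ASF/SF2) is the founding member, and in mice its loss from T cells leads to autoimmune disease. All 6 probe sets were lower in HDAC9-/- samples without passing. The dimmer 1430982_at read 8.88, 8.79 and 8.88 in HDAC9-/- samples and 9.10, 9.01 and 9.10 in wild type samples, and the groups did not overlap (difference -0.23, SE 0.068, fold 0.856, limma, adjusted p = 0.480). The brightest, 1428099_a_at, read 10.82, 10.93 and 11.07 in HDAC9-/- samples and 11.07, 11.17 and 11.17 in wild type samples, a difference of -0.19 (SE 0.085, limma, adjusted p = 0.578). There HDAC9-/- replicate 3 reached the level of wild type replicate 1. The others differed by -0.12 (1434972_x_at), -0.0015 (1453722_s_at), -0.033 (1428100_at) and -0.16 (1452430_s_at). None of the 5 tests of a Srsf1 probe set against the brightest one had an unadjusted p below 0.05.

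Srsf2 (SC35), an activator of exon inclusion, had 4 probe sets with differences of -0.0061 to -0.24, all with overlapping groups. Srsf3, the smallest SR protein and an adaptor for mRNA export, had a difference of 0.011 with its brightest probe set. Its probe set 1416152_a_at read 6.86, 6.68 and 6.88 in HDAC9-/- samples and 7.15, 7.14 and 6.88 in wild type samples. The groups there were separated by little, since HDAC9-/- replicate 3 and wild type replicate 3 both stood at 6.88, and the difference of -0.25 had an SE of 0.10 (limma, adjusted p = 0.557). The remaining 4 probe sets of Srsf3 ranged from -0.33 to 0.046.

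Srsf4, Srsf5 and Srsf6 encode related proteins with a pair of RNA recognition motifs. Srsf5, which has a single and very bright probe set, read 12.39, 12.38 and 12.29 in HDAC9-/- samples and 12.33, 12.40 and 12.49 in wild type samples, with overlap and a difference of -0.056. Srsf4 differed by -0.052. In Srsf6, 1448454_at read 10.41, 10.30 and 10.37 in HDAC9-/- samples and 10.58, 10.54 and 10.50 in wild type samples, lower without overlap (difference -0.18, SE 0.066, limma, adjusted p = 0.544). The brightest Srsf6 probe set, 1416721_s_at, leaned the other way, at 10.79, 10.72 and 10.83 in HDAC9-/- samples and 10.53, 10.60 and 10.75 in wild type samples, a difference of 0.15 with overlapping groups. The third, 1416720_at, differed by 0.027.

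Srsf10 is an SR protein that represses splicing when dephosphorylated, and Srsf11 is a more distant relative of the family. The 4 probe sets of Srsf10 had differences of 0.13, -0.023, -0.15 and 0.14, none with separated groups. Srsf11 held the only member probe set higher at an unadjusted p below 0.05. This probe set, 1427269_at, read 8.91, 8.79 and 9.01 in HDAC9-/- samples and 8.68, 8.70 and 8.75 in wild type samples, a difference of 0.19 (SE 0.078, limma, adjusted p = 0.557). Its brighter probe set, 1452371_at, read 10.50, 10.43 and 10.49 in HDAC9-/- samples and 10.55, 10.53 and 10.69 in wild type samples, a difference of -0.12. Neither overlapped, and they pointed in opposite directions. Srsf9 differed by -0.014.

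The Tra2 proteins are SR-like activators that bind purine-rich exonic enhancers. Tra2a differed by -0.18 and Tra2b by -0.036 and -0.060 with its 2 probe sets, all with overlapping groups.

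**Figure D4:**
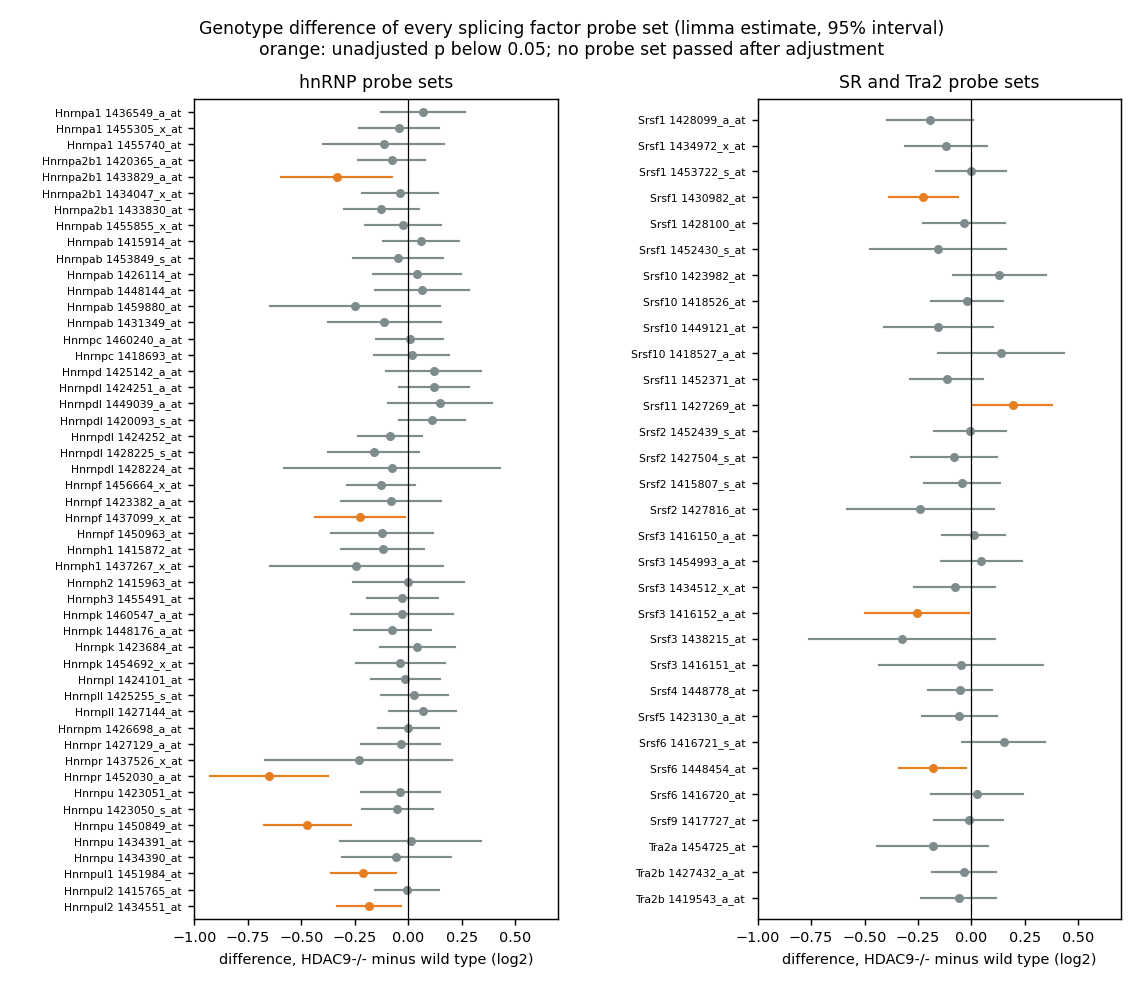
Log2 difference, HDAC9-/- minus wild type (horizontal axis), with its 95% interval for all 81 splicing factor probe sets, in 1 panel for hnRNP and 1 for SR and Tra2 probe sets. The 10 estimates drawn in orange have an unadjusted p below 0.05, and 58 of 81 estimates lie below 0.

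Of the 29 genes, 19 had more than 1 probe set. In 9 of these the probe sets took both signs, in 8 all were lower in HDAC9-/- samples and in 2 all were higher. Such signs were not counted for the other genes of the array, so these counts have no share to be set against. To test the disagreement itself, each dimmer probe set was set against the brightest of its gene within each array, and the genotypes were compared for that gap, over 7987 pairs from 4956 genes. No pair passed the adjustment with limma, neither among the 52 member pairs nor on the array (0%), and the smallest adjusted p of a member pair was 0.656. At an unadjusted p below 0.05 there were 6 of 52 member pairs (11.5%), against 7.22% of the array. The groups did not overlap for 11 of 52 (21.2%), against 14.0% of the array.

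The gap differed most between the genotypes for Hnrnpr, where 1452030_a_at minus 1427129_a_at was -4.22, -4.40 and -4.50 in HDAC9-/- samples and -3.88, -3.77 and -3.61 in wild type samples. The gap was deeper in every HDAC9-/- sample, by -0.62 on average (SE 0.12, 95% interval -0.90 to -0.34). For Hnrnpu, 1450849_at minus 1423051_at was -1.53, -1.59 and -1.70 in HDAC9-/- samples and -1.22, -1.02 and -1.27 in wild type samples, a difference of -0.44 (SE 0.11, 95% interval -0.69 to -0.19). Again no value was shared between the genotypes.

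Srsf11 was the 1 pair of the 6 with a positive difference. Its 1427269_at minus 1452371_at was -1.59, -1.64 and -1.48 in HDAC9-/- samples and -1.87, -1.83 and -1.94 in wild type samples, a difference of 0.31 (SE 0.091). In Srsf6, 1448454_at minus 1416721_s_at was -0.38, -0.42 and -0.46 in HDAC9-/- samples and 0.049, -0.059 and -0.25 in wild type samples, a difference of -0.33 (SE 0.11). The order of the pair's signals was thus the same in all HDAC9-/- samples and turned in wild type replicate 1. Hnrnpdl gave both other pairs, with differences of -0.28 for 1428225_s_at and -0.21 for 1424252_at against 1424251_a_at.

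**Figure D5:**
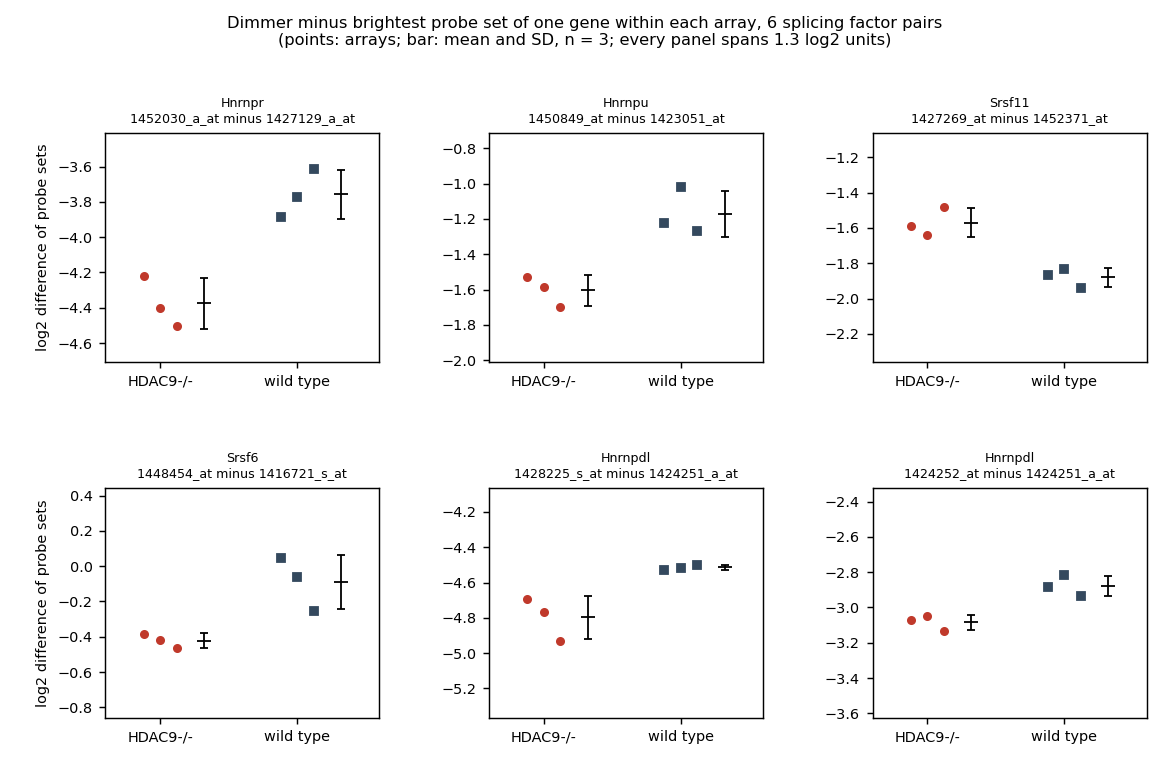
Log2 signal of a dimmer probe set minus that of the brightest probe set of the same gene (vertical axis) on each array for the 6 splicing factor pairs with an unadjusted p below 0.05, HDAC9-/- samples left of wild type samples, with bars for the mean and SD (n = 3). The HDAC9-/- points lie lower in 5 panels and higher in that of Srsf11 (difference 0.31).

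The Affymetrix name of a probe set says how specific its probes are. Of the members, 21 end in _a_at (alternative transcripts of 1 gene), 11 in _s_at (probes shared by several transcripts), 10 in _x_at (some probes similar to other sequences) and 39 in _at alone. The 10 of the _x_at kind were all lower in HDAC9-/- samples, with a median of -0.10, and 1 of them had an unadjusted p below 0.05. Of all members 71.6% were lower, and of the array 47.8%. The _x_at probe sets of the whole array were not counted. The medians were -0.036 for _a_at, -0.044 for _s_at and -0.052 for _at. Of the 10 probe sets with an unadjusted p below 0.05, 6 were of the plain kind and 3 were _a_at, among them that of Hnrnpr. The sources used here do not say where the probes lie within the transcripts, so differences between probe sets are not assigned to isoforms.

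The core of the spliceosome, made of small nuclear ribonucleoproteins and their partners, was measured by 90 probe sets of 43 of 53 listed genes. Of these, 50 were higher and 40 lower in HDAC9-/- samples with a median of 0.027, against 0.0078 for all probe sets, and 0 passed the adjustment. At an unadjusted p below 0.05, 4 were higher and 2 lower, 6.67% in all against 8.78% of the array (5.55% higher and 3.23% lower). The groups did not overlap for 22 of 90 (24.4%), against 17.0% of the array and 23.5% of all probe sets brighter than its median. Of the 90, 15 lay below that median. Of the 22, 19 were higher and 3 lower in HDAC9-/- samples, where the array had 11.0% higher and 6.04% lower. Prpf19, a ubiquitin ligase of the activating spliceosome, read 10.51, 10.41 and 10.41 in HDAC9-/- samples and 10.28, 10.27 and 10.21 in wild type samples with 1419839_x_at, a difference of 0.19 without overlap. Ddx46, an RNA helicase, had -0.35 with 1424570_at, and 0.11 and 0.039 with its other probe sets.

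SR proteins are phosphorylated by SRPK and CLK kinases and carried into the nucleus by Tnpo3. All 10 listed genes of this group were measured, with 24 probe sets, 7 higher and 17 lower in HDAC9-/- samples with a median of -0.11, and 0 passed. Taking only the brightest probe set of each gene, 5 of the 10 had a positive difference. The share with an unadjusted p below 0.05, 2 of 24 (8.33%), was near the 8.78% of the array. Both were of Prpf4b, a splicing kinase, whose 6 probe sets were all lower. Prpf4b 1425497_a_at read 5.92, 5.79 and 5.73 in HDAC9-/- samples and 6.26, 6.05 and 6.03 in wild type samples, a difference of -0.30 without overlap (limma, adjusted p = 0.495).

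Other splicing regulators gave 140 probe sets of 45 of 53 listed genes, 59 higher and 81 lower with a median of -0.034. At an unadjusted p below 0.05 there were 5 higher and 10 lower, 10.7% in all against 8.78% of the array (5.55% higher and 3.23% lower), and 0 passed the adjustment. Syncrip, the relative of Hnrnpr, read 8.48, 8.57 and 8.72 in HDAC9-/- samples and 8.11, 8.30 and 8.18 in wild type samples with 1422768_at, higher without overlap (difference 0.39, SE 0.089, limma, adjusted p = 0.422). Its other probe sets differed by -0.075, -0.31 and -0.32. Son, a large SR-like protein of nuclear speckles, had -0.29 with 1420951_a_at and -0.006 with its brightest probe set, 1420952_at. Sfpq, a paraspeckle protein, had -0.25 with 1423795_at.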

How the data were processed

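The deposited table holds log2 expression values that the authors made with RMA, per the submitters' processing notes, whose version and options the sources used here do not give. After 64 control probe sets were left out, 22626 probe sets were tested without a brightness filter. RMA compresses differences of dim probe sets. Members were found by platform symbol, and 7 probe sets with several symbols were omitted. Other listed genes were matched by symbols updated through the Entrez identifier in a mouse gene table (assembly GRCm38.p6). Differences are HDAC9-/- minus wild type, with genotype as the only term in limma's lmFit and eBayes (version 3.58.1, R 4.3.3, Benjamini-Hochberg over all probe sets, or over all pairs of probe sets). Adjusted p below 0.05 was the threshold. The code was tested on simulated data. Named are member probe sets and pairs with an unadjusted p below 0.05, the 5 brightest member genes, Hnrnpl, Hnrnpll and Srsf1. Of each other splicing list, up to 4 probe sets were picked for the smallest unadjusted p, so they show its extremes. Further probe sets were named after their values were seen. Members and lists were chosen with earlier results of these data known. Alternatives covered normalization, brightness filter, variance prior, array weights, replicate block, threshold, 1 value per gene and each array left out. Figures used matplotlib 3.10.9 in Python 3.11.15.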

Additional observations from a re-analysis of the deposited data

How the results depend on the processing

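No splicing factor probe set passed an adjusted p below 0.05 under any alternative tried, and the negative median kept its sign in all of them, from -0.073 with array medians aligned to -0.017 without wild type replicate 3. The labels do not say whether equal replicate numbers mark paired samples. Correlations of the arrays' deviations from their group mean were 0.036, 0.099 and -0.25 for equal numbers. For unequal numbers they were -0.35 to 0.28. With 3 samples per group these values cannot decide it. The replicate block gave 0 calls over the array and 0 member probe sets higher at an unadjusted p below 0.05. The 3 calls over the array became 15 with a trended, robust variance prior, 6 with array weights, 5 at an adjusted p of 0.10, 1 with the brightest probe set or with the mean per gene, and 0 to 6 with each array left out. The 0 pairs of the array became 3 without dim probe sets, 4 with array weights and 2 at an adjusted p of 0.10. Array weights gave 11 member pairs at an unadjusted p below 0.05, and leaving out arrays 3 to 10. With the brightest probe set per gene, fewer features were counted: 4 without overlap, 19 negative, 1 lower and 0 higher; with the mean per gene these were 8, 21, 2 and 0. The member probe set higher at an unadjusted p below 0.05 became 0 with array medians aligned, 3 with array weights and 4 with the trended prior. With each array left out, 0 to 3 were higher, 3 to 11 lower, and 21 to 31 did not overlap, as fewer arrays make likelier. Hnrnpr 1452030_a_at and Hnrnpu 1450849_at kept an unadjusted p below 0.05 in all 12 alternatives, the only 2 of the 10 to do so, with adjusted p of 0.123 to 0.795 and 0.0572 to 0.777 (limma). Signs turned for differences near 0: Hnrnpc 1460240_a_at (-0.019 with medians aligned, -0.022 to 0.028 with arrays left out), Hnrnpk 1460547_a_at (0.029 with array weights, -0.078 to 0.067), Hnrnpl (-0.046 to 0.016), Srsf1 1453722_s_at (0.00054 with array weights, -0.038 to 0.028) and Srsf1 1428100_at (-0.082 to 0.0070). Except where a construction is named, the cause was not tested.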

Other observations

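The 7 probe sets that carry several symbols were omitted from the members. Those of Hnrnpa1, which share their symbols with pseudogenes, had differences of 0.098 (1423531_a_at), -0.059 (1430019_a_at) and 0.051 (1430020_x_at). Those of Hnrnpa3, which is measured by such probe sets alone, had -0.052 (1428262_s_at), -0.025 (1451184_at), -0.14 (1452712_at) and 0.036 (1452774_at). The smallest of their adjusted p-values with limma was 0.619.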
